A study of Mus musculus with 64 samples.

Results

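SOX2 and β-catenin were compared in SOX2-ON cells, mouse cells held at high SOX2 while the WNT pathway was switched on. Sites were sorted into those bound by both proteins (shared), those bound by SOX2 only and those bound by β-catenin only. The comparison used 6 of the 64 samples of the study, which were 3 SOX2 and 3 β-catenin libraries made by ChIP-seq, in which DNA bound by a protein is isolated with an antibody and sequenced. Each library had a list of peaks, and the 20000 peaks with the highest −log10 p-value were kept from each so that lists of different length could be set side by side. Overlapping peaks (by 1 bp or more) were joined, which gave 71279 merged sites. A merged site was called shared when all 3 libraries of both proteins had a peak there, and was assigned to 1 protein when all 3 of its libraries and 0 of the 3 libraries of the other had one. In all, 5779 of 71279 sites (8.11%) fell into these classes.

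SOX2-ON cells came from the HM1 TetON embryonic stem cell line (129 strain). Their own Sox2 had been ablated (genotype Sox2-/-), and a Sox2 transgene in the HPRT locus was driven by doxycycline through rtTA made from the Rosa26 locus. The line was a picked clone. Differentiation used FGF together with LGK974, an inhibitor of WNT secretion. CHIR99021, which stabilizes β-catenin by inhibiting GSK3, was added for the last day. They were collected at 72 h with doxycycline kept at 1 µg/ml. SOX2-OFF cells were the same line with doxycycline withdrawn, so the transgene was present but no longer induced, and SOX2 protein made earlier may have remained. Wild-type (WT) cells of the parent line gave the other groups. CEpiLC, caudal epiblast-like cells, went through the same differentiation, and naive ESC were kept in 2i medium, which holds inhibitors of MEK and GSK3.

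SOX2 is a transcription factor with roles in pluripotency and in neural progenitors. It binds DNA itself through its HMG box, often beside OCT4 in pluripotent cells. β-catenin has no DNA-binding domain and reaches chromatin through other proteins, chiefly the TCF/LEF factors, which also bind through an HMG box. In the absence of WNT these factors can repress their targets, and β-catenin turns them into activators or relieves the repression. TCF7L1 (TCF3 in the labels) is known mainly as a repressor in pluripotent cells, LEF1 mainly as an activator, and TCF7L2 (TCF4 in the labels) has been described as either.

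The DNA under a few summits serves as an example of the sequences searched for, and a class cannot be read from the DNA of a single site. The sequences below are 101 bp of the forward strand of GRCm38 (mm10) centred on the median summit of the site, in lower case. Capitals mark the SOX sequence (CATTGT or CTTTGT), the TCF sequence (CTTTGAA or CTTTGAT) and an ESRRB-type sequence (AAGGTCA), each searched on both strands, so that ACAAAG and ATCAAAG are marked as well. The OCT-SOX sequence used further on (CATTGTNATGC or CTTTGTNATGC) contains a SOX sequence. The SOX sequence CTTTGT and both TCF sequences begin with CTTTG, so the SOX and TCF patterns are alike. Other spellings were not counted, so a site without the TCF sequence may still hold another match for TCF/LEF factors. The shared sites shown are 3 of the 6 named below as strongest by fold (Pax9, Med13l and Msx1) and the strongest near Cdx2 and Pax3, where SOX and TCF sequences lie side by side. The SOX2-only sites near Gdpd4, Hes5 and Pax6 show SOX sequences without a TCF sequence, and the β-catenin-only sites near Nectin1, Pax3, Tbx3 and Sox2 show the reverse. All sites shown hold a marked sequence, which many sites do not. The strong shared site near Gm10203 and the strong β-catenin-only site near Rtl8c had none in their 101 bp. Within 100 bp of the SOX2 summit, 20.3% of shared sites held both SOX and TCF sequences and 19.8% held neither.
Pax9 shared site, chr12:56887505-56887605: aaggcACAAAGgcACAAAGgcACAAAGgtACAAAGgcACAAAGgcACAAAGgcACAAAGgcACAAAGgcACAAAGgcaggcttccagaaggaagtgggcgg
Med13l shared site, chr5:119055619-119055719: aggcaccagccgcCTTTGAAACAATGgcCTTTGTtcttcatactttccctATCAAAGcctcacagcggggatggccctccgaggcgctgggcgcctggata
Msx1 shared site, chr5:37895938-37896038: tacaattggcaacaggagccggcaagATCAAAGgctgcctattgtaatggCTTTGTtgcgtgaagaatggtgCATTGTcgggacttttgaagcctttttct
Cdx2 shared site, chr5:147304303-147304403: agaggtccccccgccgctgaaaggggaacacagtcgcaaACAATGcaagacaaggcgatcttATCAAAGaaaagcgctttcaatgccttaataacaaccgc
Pax3 shared site, chr1:78168097-78168197: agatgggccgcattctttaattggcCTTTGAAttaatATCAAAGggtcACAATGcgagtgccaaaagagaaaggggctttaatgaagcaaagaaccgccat
Gdpd4 SOX2-only site, chr7:97972630-97972730: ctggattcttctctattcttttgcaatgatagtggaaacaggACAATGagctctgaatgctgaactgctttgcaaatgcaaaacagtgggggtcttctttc
Hes5 SOX2-only site, chr4:154960680-154960780: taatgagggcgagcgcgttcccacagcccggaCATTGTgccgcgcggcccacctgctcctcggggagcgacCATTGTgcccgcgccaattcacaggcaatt
Pax6 SOX2-only site, chr2:105616541-105616641: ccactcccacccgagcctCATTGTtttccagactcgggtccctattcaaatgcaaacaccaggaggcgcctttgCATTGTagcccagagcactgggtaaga
Nectin1 β-catenin-only site, chr9:43843917-43844017: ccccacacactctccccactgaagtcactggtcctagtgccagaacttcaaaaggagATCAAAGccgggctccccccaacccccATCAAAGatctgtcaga
Pax3 β-catenin-only site, chr1:78096778-78096878: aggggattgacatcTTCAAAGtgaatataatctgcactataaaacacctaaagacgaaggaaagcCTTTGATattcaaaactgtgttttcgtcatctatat
Tbx3 β-catenin-only site, chr5:119122951-119123051: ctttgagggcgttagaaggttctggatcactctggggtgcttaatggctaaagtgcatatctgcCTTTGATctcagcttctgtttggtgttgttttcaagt
Sox2 β-catenin-only site, chr3:34665362-34665462: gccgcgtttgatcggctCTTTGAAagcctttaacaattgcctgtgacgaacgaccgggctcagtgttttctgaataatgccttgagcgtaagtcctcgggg

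The 6 lists held 93312, 105448 and 232446 deposited peaks for SOX2 and 359820, 39154 and 461476 for β-catenin in replicates 1 to 3. Read depth is unknown, since the lists hold no read counts, and no counting error can be given. The weakest peak kept from each list had a −log10 p-value of 10.5, 10.6 and 13.9 for SOX2 and of 12.3, 7.05 and 12.7 for β-catenin, so the cut was less strict in β-catenin replicate 2 than in the other libraries. Over the kept peaks the median fold, which is the signal at the summit over the local background as MACS gave it, was 7.80, 7.58 and 9.31 for SOX2 and 8.38, 5.52 and 8.61 for β-catenin. The SOX sequence lay within 100 bp of 58.3% to 62.1% of the top 20000 SOX2 summits of SOX2-ON, against 33.2% to 35.0% in SOX2-OFF, whose cells had no intact Sox2 of their own and no doxycycline. Replicate 1 libraries held strong peaks over coding exons. β-catenin replicate 1 had 7 kept summits in coding exons of Tfap2a, with a fold of up to 188.1 in that gene, and replicates 2 and 3 had 0. These peaks entered no class, because none of the 3 classes held a site with its summit in a coding exon of Tfap2a, Tfap2c or Tcf7l1.

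The largest class at this cut was that of the shared sites. There were 2793 shared sites (3.92% of all 71279 merged sites), 2126 SOX2-only sites (2.98%) and 860 β-catenin-only sites (1.21%). The order of the first 2 depended on the cut. SOX2-only sites outnumbered shared sites when a replicate number was left out (3926 to 4116 against 3288 to 3708), when 2 of 3 libraries sufficed (6021 against 5332) and with a list length set per protein (4768 against 1285). SOX2 was present in 3 of 3 libraries at 7690 sites, of which 36.3% were shared and 27.6% had no β-catenin peak. β-catenin was present in 3 of 3 libraries at 4768 sites, of which 58.6% were shared and 18.04% had no SOX2 peak. The remaining reproducible sites had the other protein in 1 or 2 libraries, which were 36.0% of those of SOX2 and 23.4% of those of β-catenin. Most merged sites were seen once, with 31843 sites in 1 β-catenin library alone and 19657 in 1 SOX2 library alone.

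**Figure D1:**
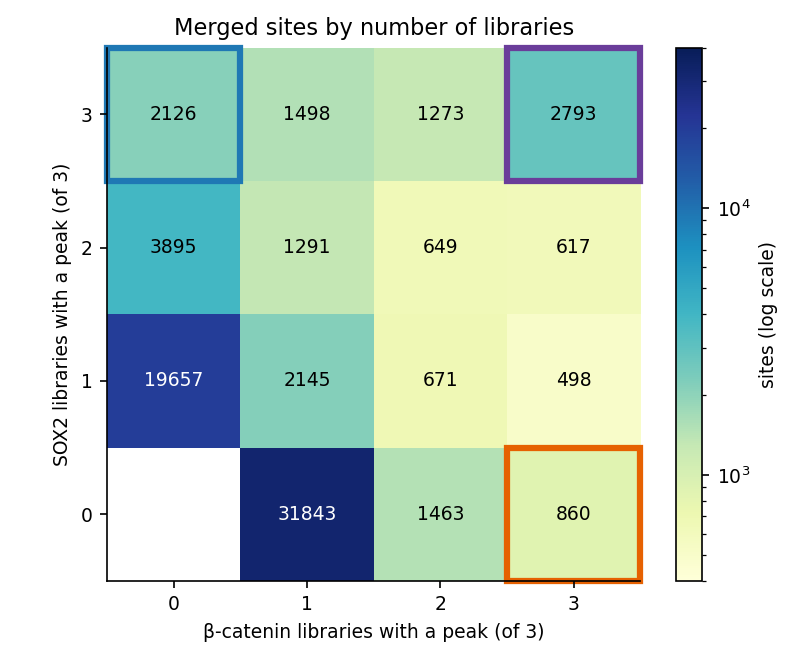
Number of merged sites by how many of the 3 SOX2 libraries (vertical axis) and of the 3 β-catenin libraries (horizontal axis) had a peak there, with the count in each square and colour on a log scale. Frames mark the classes, which are 2793 shared sites at the upper right, 2126 SOX2-only sites at the upper left and 860 β-catenin-only sites at the lower right.

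Absence was a matter of degree. When the full deposited lists of SOX2-ON were searched, 534 of the 2126 SOX2-only sites (25.1%) still had no β-catenin peak in any library, 41.1% had one in 1 library, 29.7% in 2 and 4.09% in all 3. Of the 860 β-catenin-only sites, 282 (32.8%) had no SOX2 peak in any full list, 33.5% had one in 1 library, 24.0% in 2 and 9.77% in all 3. The classes therefore separate sites that ranked among the strongest 20000 peaks of 1 protein from sites that ranked there for both, and a site of 1 protein may hold a weaker peak of the other.

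Lists of the same protein agreed more on average than those of different proteins, with the highest values among SOX2 libraries. The Jaccard index, the base pairs shared by 2 lists over those covered by either, ranged from 0.293 to 0.319 between SOX2 libraries, from 0.190 to 0.204 between β-catenin libraries and from 0.136 to 0.190 between a SOX2 and a β-catenin library. The last 2 ranges overlapped. The mean within proteins exceeded the mean between proteins by 0.0898 (exact two-sided permutation test, p = 0.1, n = 3 libraries per protein). A comparison of 3 with 3 libraries cannot give a smaller p, so no test of this form could pass 0.05.

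Shared sites carried higher folds of both proteins than the sites of 1 protein. The median SOX2 fold at shared sites was 14.3, 13.9 and 17.4 in replicates 1 to 3, against 8.63, 8.57 and 10.2 at SOX2-only sites. The median β-catenin fold was 16.8, 11.0 and 15.7 at shared sites and 11.4, 7.74 and 13.1 at β-catenin-only sites. The shared median was the higher in each of the 6 libraries. Folds were part of how peaks were ranked, so these values are a description. Over the 2793 shared sites the log2 folds of the 2 proteins were weakly related across sites (Pearson r = 0.37, Spearman rho = 0.33). Those points share the same libraries and are not independent.

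At shared sites the summits of the 2 proteins lay nearly as close to each other as those of replicates did. The median distance between the SOX2 summit and the β-catenin summit of the same replicate number was 45.0, 41.0 and 47.0 bp. Between replicates of the same protein it was 37.0 bp for every SOX2 pair and 37.0 to 45.0 bp for β-catenin pairs. After the median summit of each protein was taken over its 3 libraries, the distance was 29.0 bp, with 70.0% of shared sites within 50 bp and 94.1% within 200 bp. The strongest site near Gbx2 was an exception, with summits 1148 bp apart, so the merged interval there held separate summits of the 2 proteins.

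The DNA under the summits differed between the proteins. Within 100 bp of the summit of their top 20000 peaks, 61.4%, 62.1% and 58.3% of SOX2 peaks held a SOX sequence, against 43.0%, 40.8% and 38.5% of β-catenin peaks. A TCF sequence was held by 14.4%, 13.9% and 14.3% of SOX2 peaks and by 24.8%, 24.8% and 23.8% of β-catenin peaks. Neither pair of groups overlapped. The differences, SOX2 minus β-catenin, were 19.9 percentage points for SOX and -10.3 for TCF (exact permutation test, two-sided, p = 0.1 each, 0.125 after Benjamini-Hochberg adjustment over 5 measures, n = 3 per protein). The size depended on the cut. With all deposited peaks it was 9.57 points for SOX (exact permutation test, p = 0.1) and -2.38 for TCF (p = 0.8), so the TCF separation was not kept there. The OCT-SOX sequence was rarer, at 1.60% ± 0.249 of SOX2 peaks and 0.772% ± 0.124 of β-catenin peaks (mean ± SD, n = 3). The ESRRB-type sequence was at 3.97% ± 0.0275 and 4.16% ± 0.165 (adjusted p = 0.2, exact permutation test, n = 3).

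**Figure D2:**
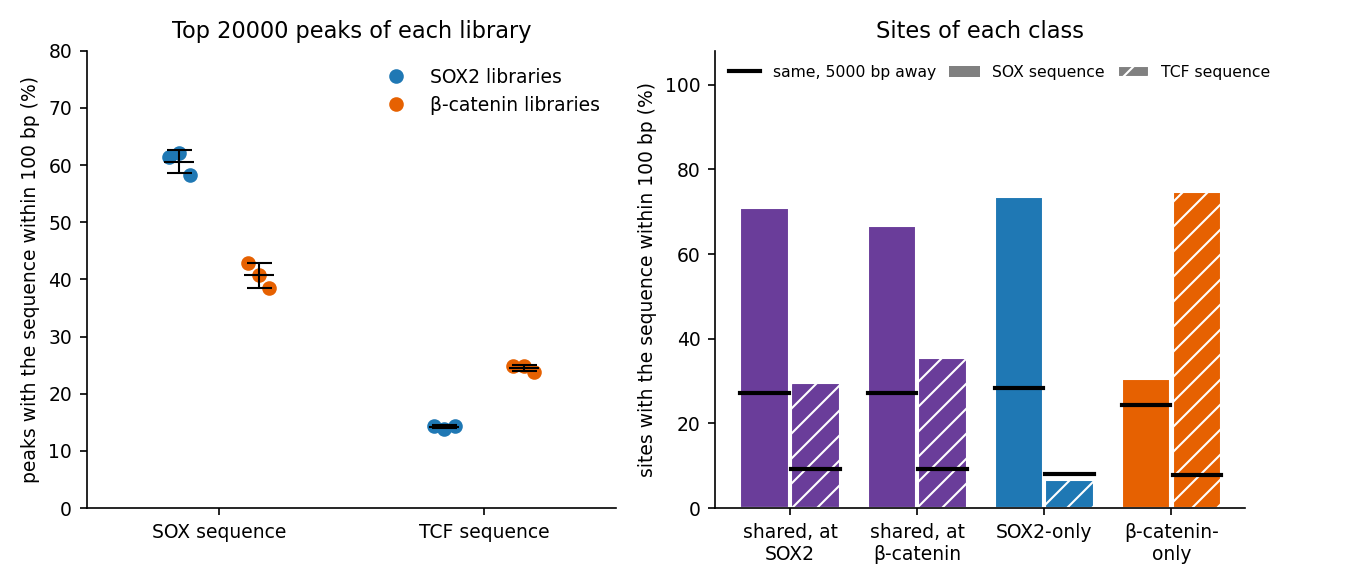
Left, percent of the top 20000 peaks of each library with a SOX or a TCF sequence within 100 bp of the summit, with 1 point per library and black bars for mean ± SD of 3. Right, percent of the sites of each class with the sequences within 100 bp of the median summit, plain bars for SOX and hatched bars for TCF, with black lines for windows 5000 bp away. TCF sequences were at 74.7% of β-catenin-only sites and at 6.63% of SOX2-only sites, the latter below its 5000 bp window.

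Split by class, the sequences separated far more than by library. A SOX sequence lay within 100 bp of the SOX2 summit at 70.8% of shared and 73.5% of SOX2-only sites, and within 100 bp of the β-catenin summit at 30.6% of β-catenin-only sites. Windows of the same 201 bp placed 5000 bp away held one in 27.2%, 28.4% and 24.4%, and all merged sites in 43.6%. A TCF sequence was within 100 bp of the β-catenin summit at 35.4% of shared and 74.7% of β-catenin-only sites. It was near the SOX2 summit of 6.63% of SOX2-only sites, against 8.14% of windows 5000 bp away and 15.03% of all merged sites. The OCT-SOX sequence was found at 102 shared sites (3.65%), 43 SOX2-only sites (2.02%) and 3 β-catenin-only sites (0.349%), and the ESRRB-type sequence at 3.53% to 4.05% of sites in the 3 classes against 3.26% to 3.76% of their windows 5000 bp away.

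Around the SOX2 summit, the most frequent combination at shared sites was the SOX sequence without the TCF sequence. There 50.6% of shared sites had SOX alone, 20.3% had both, 9.35% had TCF alone and 19.8% had neither. These shares depend on the summit used, since 1043 of the 2793 shared sites held a TCF sequence within 100 bp of either summit. Background windows were not searched for combinations. At SOX2-only sites 68.8% had SOX alone and 4.70% had both. At β-catenin-only sites 52.7% had TCF alone and 22.0% had both. Pax9, the site with the highest fold of SOX2 in each replicate list, had 9 copies of ACAAAG in its 101 bp and no TCF sequence. Med13l, a site with folds of 40.6 to 82.9 over the 6 libraries, had 2 copies of each.

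**Figure D3:**
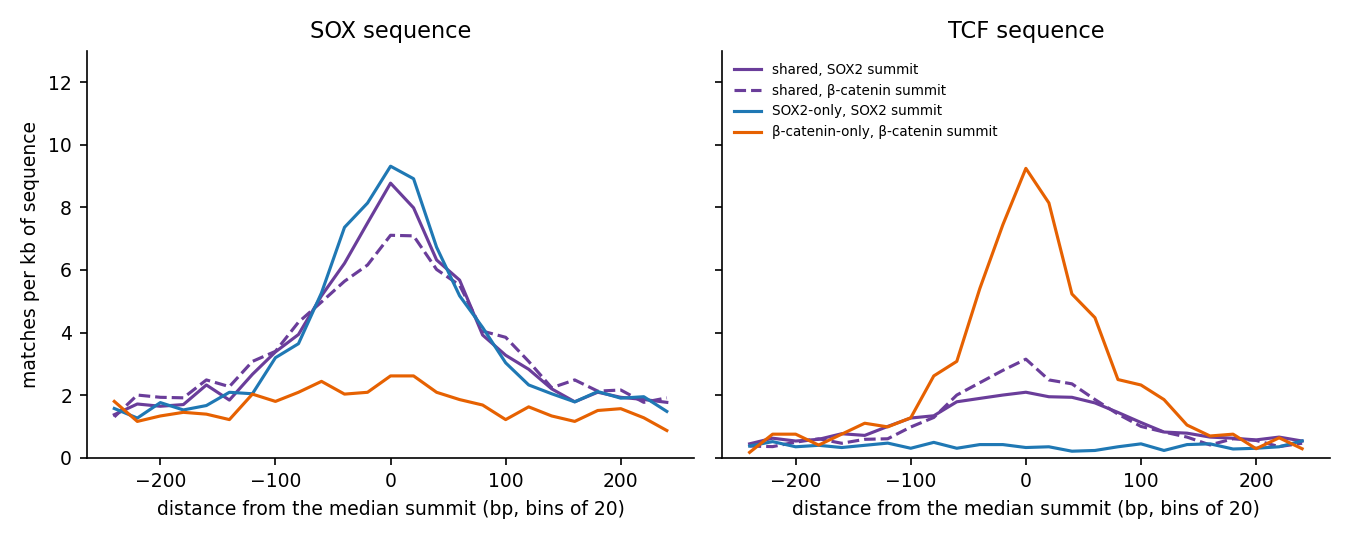
Matches to the SOX sequence (left) and the TCF sequence (right) per kb of sequence in bins of 20 bp, against distance from the median summit of the protein named, for the 3 classes. SOX matches peaked at the summits of shared and SOX2-only sites, TCF matches peaked at β-catenin-only sites and less at shared sites, and SOX2-only sites showed no TCF peak.

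Sequences lay close to the summits they went with. At sites that held one, the nearest SOX sequence was at a median of 25.0 bp from the SOX2 summit of shared sites and 24.0 bp at SOX2-only sites, and the nearest TCF sequence was 23.0 bp from the β-catenin summit of β-catenin-only sites. At shared sites the nearest TCF sequence was 33.5 bp from the β-catenin summit and the nearest SOX sequence 29.0 bp from it. The β-catenin summit of a shared site had a SOX sequence within 20 bp in 25.5% of sites and a TCF sequence within 20 bp in 11.9%. These shares are not on one scale, since the SOX sequence is the commoner. For shared sites, 201 bp windows 5000 bp away held SOX in 27.2% and TCF in 9.20%. No background was taken for the 20 bp span or for the distances.

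Sites with partial presence lay between the classes. Among sites with SOX2 in 3 of 3 libraries, the share with a TCF sequence was 6.63%, 9.81%, 15.1% and 29.6% for β-catenin in 0, 1, 2 and 3 libraries, while the share with a SOX sequence stayed between 70.8% and 74.1%. The median SOX2 fold over the same steps was 9.08, 10.4, 11.8 and 15.1. Among sites with β-catenin in 3 of 3 libraries, the share with a SOX sequence was 30.6%, 42.4%, 56.2% and 66.7% for SOX2 in 0, 1, 2 and 3 libraries, and that with a TCF sequence was 74.7%, 61.2%, 51.9% and 35.4%. The sequence share of the second protein thus followed the number of its libraries in both directions.

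The classes also differed in where they lay. Of SOX2-only sites, 14.6% had the summit within 1000 bp of the start of a protein-coding gene, against 3.80% of shared sites, 5.35% of β-catenin-only sites and 8.76% of all merged sites. The median distance to the nearest start was 52745 bp for shared, 30822 bp for SOX2-only and 35806 bp for β-catenin-only sites. Shared sites lay in introns (41.0%) or between genes (57.1%), with 0.251% in coding exons and 1.58% in UTRs. By library, 11.1%, 8.87% and 11.8% of top SOX2 peaks and 5.88%, 5.71% and 6.97% of top β-catenin peaks lay within 1000 bp of a start, so every SOX2 library was above every β-catenin library (difference of 4.41 percentage points, exact permutation test, p = 0.1, adjusted p = 0.125, n = 3 per protein).

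TCF/LEF factors, mapped in the same cells and not used to sort the sites, were most often at shared sites. Lists of LEF1, TCF7L1 and TCF7L2 in SOX2-ON were each shortened to 16482 peaks, the length of the shortest. A site counted as covered when a peak shared 1 bp with it, and a wider site is easier to overlap. The median width was 909 bp for shared, 582 bp for SOX2-only, 506.5 bp for β-catenin-only and 275 bp for all merged sites. Neither these shares nor those of other conditions below were corrected for width, and its part in the gaps was not tested. LEF1 had a peak at 45.3%, 74.3% and 47.6% of shared sites in replicates 1 to 3, at 4.66%, 13.97% and 3.76% of SOX2-only sites and at 19.8%, 28.1% and 24.5% of β-catenin-only sites. TCF7L2 covered 22.0%, 28.6% and 31.4% of shared, 3.34%, 3.76% and 5.17% of SOX2-only and 13.8%, 19.2% and 28.8% of β-catenin-only sites. In both factors the shared class was above the others in each library. Over all merged sites LEF1 was at 4.36%, 7.97% and 4.53% and TCF7L2 at 2.93%, 3.74% and 4.75%. SOX2-only sites were near that level for TCF7L2 and for LEF1 replicates 1 and 3, and above it for LEF1 replicate 2.

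TCF7L1 covered nearly all shared sites in 2 of its 3 libraries. Its peaks were at 97.3% and 97.2% of shared sites in replicates 2 and 3 and at 32.4% in replicate 1, whose list stood apart. SOX2-only sites had TCF7L1 at 1.55%, 23.1% and 21.1%, and β-catenin-only sites at 12.7%, 84.3% and 91.2%. Over all merged sites the share was 2.62%, 16.6% and 17.5%. TCF7L1 was therefore near the level of all merged sites at SOX2-only sites and far above it in the other classes.

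Over the 9 libraries the share was higher at shared than at SOX2-only sites in 9 of 9, by a mean of 44.0 percentage points (18.7 to 76.2; exact two-sided sign-flip permutation test, p = 0.00391, adjusted p = 0.00521 over 4 tests). It was higher at shared than at β-catenin-only sites in 9 of 9, by a mean of 17.1 percentage points (2.53 to 46.2; the same exact permutation test, p = 0.00391, adjusted p = 0.00521). Without TCF7L1 replicate 1, a choice made after seeing the data, the means were 45.6 and 16.8 points (adjusted p = 0.0104 each, exact permutation test). The 9 libraries came from 3 replicate numbers, and with signs flipped by number the smallest possible p is 0.25.

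**Figure D4:**
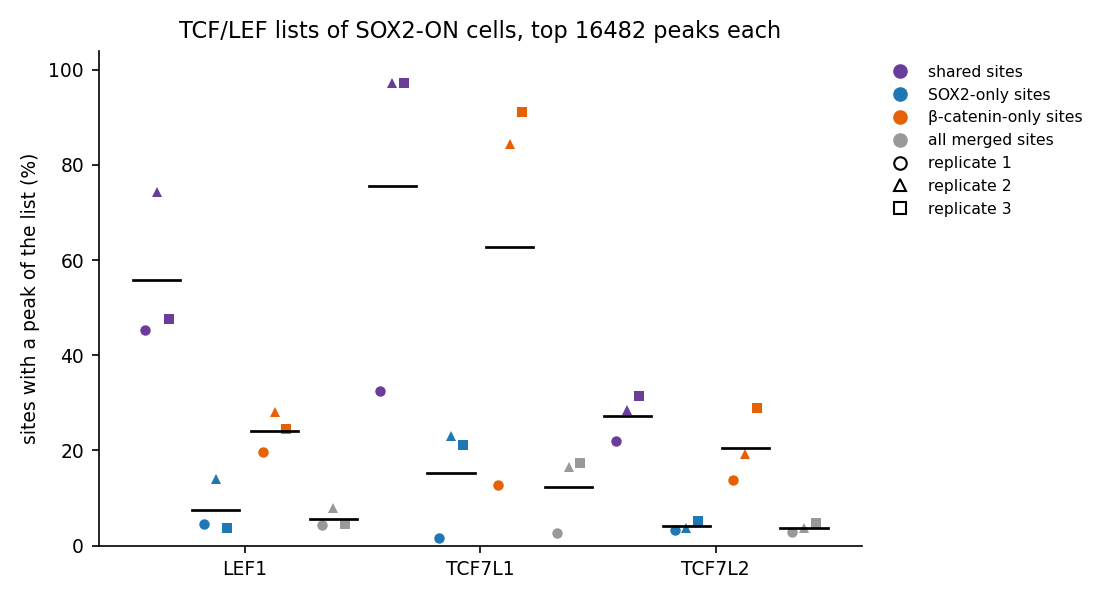
Percent of sites with a peak of LEF1, TCF7L1 or TCF7L2 in SOX2-ON cells, using the top 16482 peaks of each library, for shared, SOX2-only and β-catenin-only sites and for all merged sites. Symbols are replicates and black lines are means of 3, and shared sites were the highest class in every library.

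The gap to SOX2-only sites was also present within tertiles of SOX2 fold. Shared and SOX2-only sites were split together into tertiles of median SOX2 fold. In the lowest tertile the median fold was 8.38 at 446 shared and 8.01 at 1193 SOX2-only sites, and the mean share over the 9 TCF/LEF libraries was 43.8% against 7.13%. In the highest tertile it was 58.7% of 1487 shared against 16.7% of 154 SOX2-only sites, where the median folds were less alike (20.6 and 16.4). In tertiles of β-catenin fold the gap between shared and β-catenin-only sites was smaller and differed by factor. LEF1 was at 31.5% of shared and 14.04% of β-catenin-only sites of the lowest tertile, whereas TCF7L2 was at 9.88% and 16.9%. In the middle tertile TCF7L2 was at 16.5% and 19.2%, so for TCF7L2 the order of these classes was not kept in the lower 2 tertiles.

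TCF/LEF peaks were also frequent at shared sites without CTTTGAA or CTTTGAT, the TCF sequence as counted here. Such sites may hold other TCF/LEF matches, which were not searched for. Of the 2793 shared sites, 1750 had no TCF sequence within 100 bp of either summit, and TCF7L1 replicates 2 and 3 had a peak at 96.4% of these in both libraries, against 98.7% to 98.8% of the 1043 sites with the sequence. LEF1 was at 40.9%, 70.0% and 41.5% without the sequence and at 52.8%, 81.6% and 57.8% with it. For TCF7L2 the values were 15.6%, 20.7% and 24.0% without and 32.8%, 41.8% and 43.7% with it. At shared sites the share was higher with the sequence in all 9 libraries. At β-catenin-only sites it was higher in the 6 LEF1 and TCF7L1 libraries and lower in the 3 TCF7L2 libraries (12.2%, 18.1% and 28.0% with the sequence, 18.8%, 22.5% and 31.2% without). At shared sites the median β-catenin fold was also higher with it (21.4, 13.9 and 19.7 against 15.1, 9.85 and 14.2), while the median SOX2 fold was lower (13.2, 12.2 and 15.6 against 15.1, 15.4 and 18.6).

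Shared sites and β-catenin-only sites differed in where else β-catenin was found. β-catenin lists of the other conditions were shortened to 3423 peaks each, the length of SOX2-OFF replicate 2. In naive ESC, where SOX2 is high, β-catenin had a peak at 39.2%, 35.7% and 36.7% of shared and at 32.9%, 29.2% and 30.1% of β-catenin-only sites. In CEpiLC it was at 26.1%, 24.6% and 22.4% of shared and 49.9%, 52.8% and 50.8% of β-catenin-only sites. In SOX2-OFF it was at 25.7%, 27.3% and 26.1% of shared and 61.6%, 59.0% and 65.1% of β-catenin-only sites. Over all merged sites the share was 3.57% to 4.05% in these libraries. The 2 classes thus stood in opposite order in naive ESC and in the low-SOX2 conditions, with no overlap between libraries.

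Over the 9 libraries the mean of shared minus β-catenin-only sites was -18.6 percentage points (exact sign-flip permutation test, p = 0.0312, adjusted p = 0.0312), positive in 3 and negative in 6. By condition the mean gap was 6.48 points in naive ESC, -26.78 in CEpiLC and -35.55 in SOX2-OFF. The mean of the 9 thus pools gaps of opposite sign and depends on which conditions were included. An exact permutation test with signs flipped by replicate number gave p = 0.25, the smallest it can give. The mean of the 9 also depended on the length of the lists and turned to 7.09 points with all deposited peaks (adjusted p = 0.242, exact permutation test). It was -17.3 points without SOX2-OFF replicate 2 (adjusted p = 0.0703, exact permutation test, a choice made after seeing the data), and between -10.8 and -10.2 when a replicate number was left out, no longer past 0.05. The difference of this gap between the 3 naive ESC libraries and the 6 libraries of CEpiLC and SOX2-OFF was 37.6 points (exact permutation test, p = 0.0119, the smallest it can give, adjusted p = 0.0238 over 2 tests). It was 33.5 points with all deposited peaks. Within tertiles of β-catenin fold, naive ESC kept the order in the highest alone, where median folds were not matched (24.6 at shared and 20.4 at β-catenin-only sites). There β-catenin of SOX2-OFF was at 45.0% ± 1.55 of 1099 shared and 92.6% ± 2.48 of 121 β-catenin-only sites, and β-catenin of naive ESC at 58.1% ± 3.39 and 51.8% ± 4.55 (mean ± SD, n = 3). In the lowest tertile naive ESC β-catenin was at 17.3% ± 0.805 of shared and 22.1% ± 0.264 of β-catenin-only sites, and SOX2-OFF β-catenin at 10.2% ± 0.644 and 47.6% ± 2.41. The gap was thus smaller in naive ESC than in SOX2-OFF in both tertiles, while its sign in naive ESC went with the fold.

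**Figure D5:**
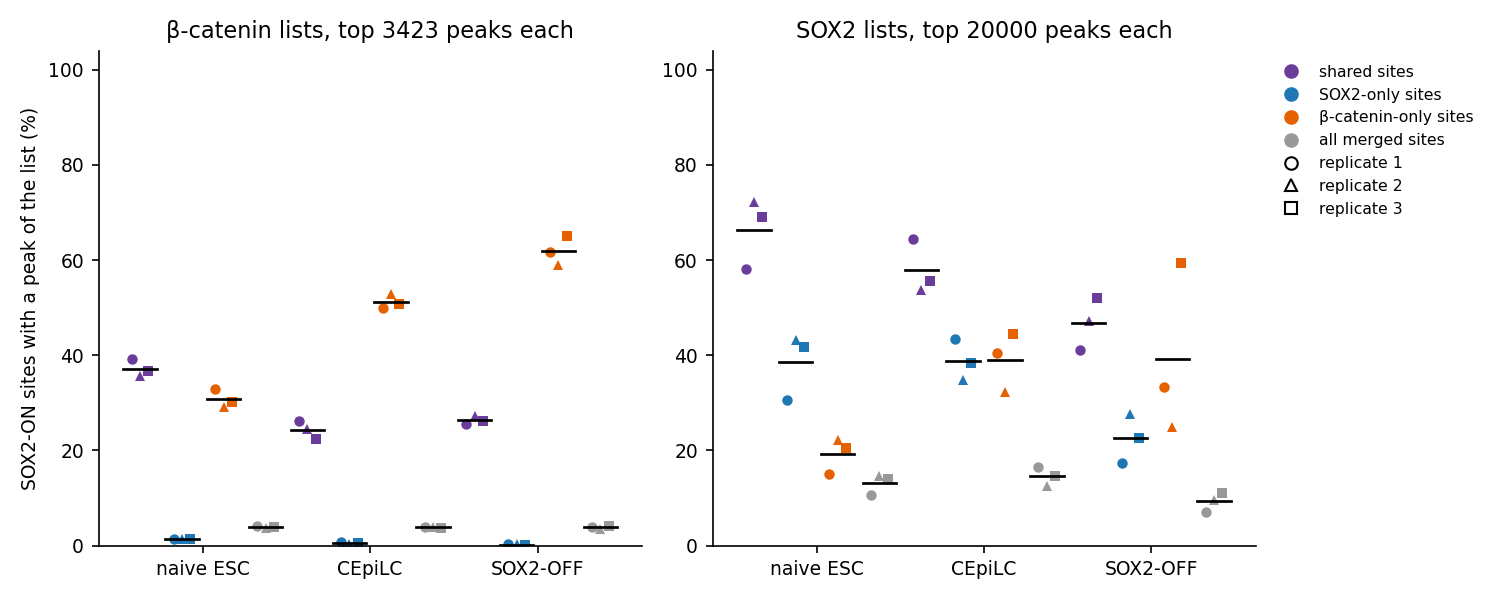
Percent of SOX2-ON sites of each class with a β-catenin peak (left, top 3423 peaks per library) or a SOX2 peak (right, top 20000) in naive ESC, CEpiLC and SOX2-OFF. Symbols are replicates and black lines are means of 3, and β-catenin-only sites had β-catenin at 59.0% to 65.1% in SOX2-OFF against 25.7% to 27.3% of shared sites.

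SOX2 of other conditions was also more often at shared than at SOX2-only sites. In naive ESC it had a peak at 58.2%, 72.1% and 69.0% of shared and 30.7%, 43.2% and 41.7% of SOX2-only sites. In CEpiLC it was at 64.5%, 53.7% and 55.6% of shared and 43.4%, 34.8% and 38.4% of SOX2-only sites. The gap was positive in 9 of 9 libraries, with a mean of 23.7 percentage points (exact sign-flip permutation test, p = 0.00391, adjusted p = 0.00521). It did not differ detectably between naive ESC and the low-SOX2 conditions (6.25 points, exact permutation test, p = 0.0833, adjusted p = 0.0833).

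The SOX2 antibody also gave peaks at these sites after doxycycline had been withdrawn. In SOX2-OFF its lists had a peak at 41.2%, 47.2% and 52.0% of shared, 17.4%, 27.8% and 22.6% of SOX2-only and 33.3%, 25.0% and 59.3% of β-catenin-only sites. Over all merged sites the share was 7.14%, 9.61% and 11.2%. With the SOX2-OFF libraries left out, a choice made after seeing the data, the gap between shared and SOX2-only sites was 23.5 points (adjusted p = 0.0312, exact permutation test over 6 libraries). Low levels of SOX2 left after withdrawal and signal from other sources cannot be told apart in these lists.

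Genes were assigned by the nearest start of a protein-coding gene. Of 21938 protein-coding genes, 2051 (9.35%) were nearest to at least 1 shared site, 1811 (8.26%) to a SOX2-only site and 791 (3.61%) to a β-catenin-only site. A gene could fall in several classes, since 512 genes were nearest to both a shared and a SOX2-only site and 260 to both a shared and a β-catenin-only site. Most of the 2051 genes had 1 shared site (1563 genes). The most were 8 at Zfp608, followed by 6 each at Klf6, Tnfrsf19 and Tns3, and 23 genes had 5, of which 4930452B06Rik comes first by name. Genes with wide flanks collect more sites, and this was not corrected for.

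Most genes of pluripotency had a shared site, a larger share than of all genes in both lists. Of 15 genes of naive pluripotency, 10 had a shared site (66.7%, against 9.35% of all genes). A SOX2-only site was nearest to 2 (13.3%, against 8.26%) and a β-catenin-only site to 2 (13.3%, against 3.61%). With 2 genes each, these shares cannot be set apart from those of all genes. Near Klf2, a Krüppel-like factor of naive cells, a shared site 2796 bp upstream had folds of 35.4, 46.5 and 42.8 for SOX2 and 27.7, 24.8 and 26.4 for β-catenin. The summits of the proteins lay 1 bp apart there, and all 6 libraries had a strong peak. Near Socs3, the feedback inhibitor of LIF signalling, the values were 33.1, 34.8 and 33.4 for SOX2 and 27.4, 18.01 and 25.3 for β-catenin. Esrrb, an orphan nuclear receptor of the naive network, had a weaker shared site in an intron, with SOX2 folds of 13.2, 12.5 and 11.7 and β-catenin folds of 16.1, 12.1 and 9.97. Tfcp2l1 was the gene of this list with a β-catenin-only site and no shared one.

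Of 10 core pluripotency genes, 7 had a shared site (70.0%, against 9.35% of all genes). A SOX2-only site was nearest to 5 (50%, against 8.26%) and a β-catenin-only site to 2 (20%, against 3.61%). Near Pou5f1, which encodes OCT4, a shared site 907 bp upstream of the start had SOX2 folds of 16.8, 12.9 and 39.5 and β-catenin folds of 34.8, 17.0 and 43.1, and a SOX2-only site lay 3423 bp upstream with SOX2 folds of 6.61, 6.28 and 7.78. Nanog had 3 shared sites and Sall4 had 3. The Sox2 locus itself, whose coding sequence had been ablated, had a shared site 3660 bp downstream of the start (SOX2 folds of 9.35, 13.1 and 15.2, β-catenin folds of 10.2, 9.85 and 12.2) and a β-catenin-only site 15007 bp downstream (6.83, 5.13 and 5.63 for β-catenin). The latter held the TCF sequence shown above and a SOX2 peak of fold 3.35 in the full list of replicate 1.

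WNT targets and feedback genes fell in all 3 classes. Of 18 genes, 10 had a shared site (55.6%, against 9.35% of all genes) and 6 a SOX2-only site (33.3%, against 8.26%). A β-catenin-only site was nearest to 11 (61.1%, against 3.61%). Axin2, which encodes a scaffold of the β-catenin destruction complex and is a classical WNT target, had a β-catenin-only site in an intron 849 bp from its start, with folds of 38.6, 34.4 and 56.0. SOX2 had weaker peaks there in the full lists of SOX2-ON (4.91, 4.16 and 5.81), so SOX2 was low and not lacking at that site. Sp5, a transcription factor gene induced by WNT, had 4 shared sites, and the strongest, at its start, had β-catenin folds of 116.6, 59.6 and 145.1 and SOX2 folds of 22.6, 17.1 and 21.1. Rnf43 and Lgr5, a ubiquitin ligase that removes WNT receptors and an R-spondin receptor, had β-catenin-only sites and no shared site. The Lgr5 site held weaker SOX2 peaks in the full SOX2-ON lists of replicates 2 and 3 (4.637 and 3.575), and the strongest Rnf43 site held none.

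Several WNT genes showed both shared and β-catenin-only sites at 1 locus. Axin2 had 1 shared and 2 β-catenin-only sites, and Sp5 had 2 β-catenin-only sites beside its 4 shared ones. Myc had a shared site 6270 bp upstream (SOX2 folds of 21, 32.4 and 27.5, β-catenin folds of 53.1, 52.8 and 79.98) and a β-catenin-only site 173677 bp downstream with no SOX2 peak in any full list of SOX2-ON. Znrf3, a homologue of Rnf43, had a shared site in an intron and a β-catenin-only site at its start, where β-catenin folds were 17.5, 12.5 and 24.9. Tnfrsf19 had 6 shared, 2 SOX2-only and 2 β-catenin-only sites. Tcf7l1 had 3 shared and 2 SOX2-only sites, while Tcf7 and Tcf7l2 had 2 β-catenin-only sites, 1 SOX2-only site and no shared site each.

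Of 16 primitive streak and mesoderm genes, 4 had a shared site (25.0%, against 9.35% of all genes), 1 a SOX2-only site (6.25%, against 8.26%) and 4 a β-catenin-only site (25.0%, against 3.61%). T, which encodes Brachyury, had a shared site 346 bp upstream of its start with β-catenin folds of 33.3, 15.3 and 50.5 and SOX2 folds of 11.3, 6.77 and 12.9. Nodal, a ligand of the TGF-β family, had a β-catenin-only site 1872 bp upstream with folds of 40.6, 14.97 and 18.6. SOX2 was thus among the top peaks at this site of T in every replicate and, as the class requires, in none at the Nodal site. The Nodal site held weaker SOX2 peaks in the full SOX2-ON lists of replicates 1 and 3 (4.476 and 4.532). It also held SOX2 peaks in the full lists of 3 of 3 libraries of naive ESC, CEpiLC and SOX2-OFF. T had a β-catenin-only site as well, 25284 bp upstream of its start. Of 21 caudal epiblast genes, 5 had a shared site (23.8%, against 9.35% of all genes). With 2 genes at a SOX2-only site (9.52%) and 1 at a β-catenin-only site (4.76%), the list was near the 8.26% and 3.61% of all genes. The site in the intron of Cdx2, a homeobox gene of the posterior body axis, had SOX2 folds of 45.9, 22.7 and 31.1 and β-catenin folds of 91.2, 70.2 and 106.9, and LEF1, TCF7L1 and TCF7L2 each had a peak there in 3 of 3 libraries.

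Neural genes were above the share of all genes in all 3 classes. Of 20 genes, 9 had a shared site (45.0%, against 9.35% of all genes) and 8 a SOX2-only site (40%, against 8.26%). A β-catenin-only site was nearest to 3 of them (15%, against 3.61%). Hes5, a target of Notch in neural progenitors, had a SOX2-only site 193 bp upstream of its start with folds of 7.57, 9.08 and 11.0 and no β-catenin peak in any full list of SOX2-ON, although 2 naive ESC and 2 CEpiLC β-catenin lists had one. Sox21 had a shared site with SOX2 folds of 31.2, 42.6 and 51.2 and β-catenin folds of 36.0, 18.4 and 12.7. Pax6, an eye and neural tube regulator, had a shared site in an intron of the neighbouring gene Elp4 with SOX2 folds of 14.7, 17.1 and 12.4 and β-catenin folds of 9.28, 9.34 and 12.7. No SOX2 or β-catenin library of naive ESC, CEpiLC or SOX2-OFF had a peak at this site in its full list. Pax3, a gene of the dorsal neural tube, had a shared site with folds of 20.3 to 24.9 for SOX2 and 24.8 to 46.1 for β-catenin, where the TCF and SOX sequences shown above lie together.

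Of 11 genes of FGF and ERK feedback, 8 had a shared site (72.7%, against 9.35% of all genes). A SOX2-only site was nearest to 4 (36.4%, against 8.26%) and a β-catenin-only site to 1 (9.09%, against 3.61%). Spry2, an inhibitor of receptor tyrosine kinase signalling, had a shared site 24181 bp upstream with SOX2 folds of 39.7, 24.9 and 42.8 and β-catenin folds of 15.4, 12.5 and 22.9. Dusp6, an ERK phosphatase, had 2 shared, 3 SOX2-only and 1 β-catenin-only sites. Spred1 had a shared site 1310 bp upstream with SOX2 folds of 18.7, 25.9 and 27.1 and β-catenin folds of 12.9, 9.49 and 9.62. Etv5 was the gene of this list with a SOX2-only site and no other.

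The remaining lists held 5 to 9 genes each. Of all genes, 9.35% had a shared, 8.26% a SOX2-only and 3.61% a β-catenin-only site. Of 8 primed epiblast genes 3 had a shared site (37.5%), and Otx2 had 2 SOX2-only sites. Of 6 genes of extraembryonic endoderm 1 had a shared (16.7%) and 2 a β-catenin-only site (33.3%). Of 5 trophoblast genes 1 had a shared (20%) and 2 a β-catenin-only site (40%). Of 9 genes of feeder fibroblasts 1 had a shared site (Twist2) and 1 a SOX2-only site (Dcn). The feeder shares, 11.1% each, were near the 9.35% and 8.26% of all genes. These lists are small, and binding says nothing of whether the genes were expressed.

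The strongest sites without regard to lists were also named. At Pax9, 195788 bp from the start and inside an intron of Slc25a21 (chr12:56887115-56887837), folds were 90.8, 90.1 and 102.8 for SOX2 and 103.8, 57.9 and 87.6 for β-catenin, and LEF1, TCF7L1 and TCF7L2 each had a peak in 3 of 3 libraries. In the full lists β-catenin had a peak there in 2 naive ESC libraries and in 0 of CEpiLC or SOX2-OFF. The site near Msx1 (chr5:37895243-37896731) had β-catenin folds of 129.1, 91.6 and 126.2 and SOX2 folds of 54.6, 34.5 and 49.4, and 57 of the 60 lists had a peak there. Near Gja1, which encodes connexin 43, the site 2918 bp upstream had SOX2 folds of 46.1, 52.7 and 58.3 and β-catenin folds of 80.2, 67.1 and 87.8. The remaining 3 were near Med13l, Trim42 and Gm10203.

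The strongest SOX2-only sites with no β-catenin peak in any full list of SOX2-ON had lower SOX2 folds than the strongest shared sites. At Mex3d (chr10:80387588-80387899), 72 bp upstream of the start, SOX2 folds were 22.5, 10.8 and 25.2. At Rbbp5 (chr1:132476903-132477598), 253 bp upstream, they were 18.2, 10.1 and 21.9, and the other 4 were near Kcnk9, Opcml, Gdpd4 and 4931428F04Rik. In 5 of these 6 sites 0 of the 9 TCF/LEF libraries had a peak among their top 16482, and at Opcml 1 had. β-catenin had a peak at Mex3d in 5 full lists of the other conditions and at Kcnk9, Opcml and 4931428F04Rik in 1 each. The SOX2 antibody also gave a peak at Mex3d, Rbbp5 and 4931428F04Rik in 3 of 3 SOX2-OFF libraries.

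The strongest β-catenin-only sites with no SOX2 peak in any full list of SOX2-ON were near E2f7, Hoxd1, Nectin1, Rtl8c, Plxdc2 and Edem3. Near Hoxd1, an anterior Hox gene (chr2:74760091-74760533), 2619 bp upstream of the start, β-catenin folds were 30.2, 26.6 and 37.1. Near E2f7 (chr10:110616887-110617379) they were 33.9, 9.83 and 35.3. At both, the SOX2 antibody had a peak in 3 of 3 CEpiLC and 3 of 3 SOX2-OFF libraries, although it had none in SOX2-ON. β-catenin had a peak in 3 of 3 CEpiLC and 3 of 3 SOX2-OFF libraries at 5 of the 6 sites, Edem3 being the exception. Of these 6 sites, 4 held the TCF sequence within 50 bp of the summit and 0 held the SOX sequence.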

How the data were processed

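The authors fixed cells with DSG and formaldehyde, sequenced single-end ChIP-seq libraries, aligned reads with BWA in the nf-core/chipseq pipeline and called peaks for each library with MACS2 on mm10. The deposited narrowPeak lists give a score (10 times the −log10 q-value), the fold over background as a ratio, the −log10 p-value and the −log10 q-value. The highest deposited q-value was 0.04999. There were 60 lists, and the 4 inputs had none. The labels call the replicates biological.

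The 20000 peaks with the highest −log10 p-value of each SOX2-ON SOX2 and β-catenin library were merged at 1 bp overlap on chromosomes 1 to 19, X and Y. Sequences were searched in 201 bp windows of GRCm38, and genes were assigned by the nearest protein-coding start (GENCODE M21). Named genes were the 6 strongest sites per class, members of 11 lists (139 genes, of which 79 were nearest to a site) and the 5 genes with most shared sites. Single genes picked as examples within the lists were chosen after their values were seen. Tests were exact permutations over libraries with Benjamini-Hochberg adjustment and a threshold of 0.05 (Python 3.11.15, numpy 2.4.6, pandas 2.3.3, scipy 1.17.1, pysam 0.24.0). The merging and counting were tested on simulated data. Read depth is unknown, so no counting interval is given.

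The members and lists were chosen with earlier results of these data known. The splits by sequence, by fold tertile and by number of libraries, and the alternatives that leave out named libraries, were chosen after seeing the data. Alternatives varied the list length, ranking, overlap, replicates and windows.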

Additional observations from a re-analysis of the deposited data

Results flagged for a closer look

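The gap between classes in β-catenin of other conditions differed between conditions by a test of the difference itself. Shared minus β-catenin-only sites was positive in 3 of 3 naive ESC libraries and negative in 6 of 6 CEpiLC and SOX2-OFF libraries, and the gap was 37.6 percentage points higher in naive ESC (exact two-sided permutation test over 3 and 6 libraries, p = 0.0119, the smallest it can give, adjusted p = 0.0238). From the lowest to the highest tertile of β-catenin fold the mean naive ESC gap was -4.85, -5.76 and 6.35 points. Its sign in naive ESC thus went with the fold, and folds were not matched in the highest tertile. Naive ESC also differ from the other conditions in culture medium and stage, so SOX2 level and these cannot be told apart in that comparison.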

How the results depend on the processing

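The numbers of sites depended on the cut. Shared sites numbered 1084 with the top 5000 peaks, 6124 with all deposited peaks, 5332 when 2 of 3 libraries sufficed, 1285 with a list length set per protein and 3288 to 3708 without a replicate. SOX2-only sites numbered 1129 with the top 10000 peaks and 582 with the top 5000, 3858 with all peaks, 6021 with 2 of 3 libraries, 534 with absence required in full lists, 4768 with a length per protein and 3926 to 4116 without a replicate. β-catenin-only sites numbered 2323 with 2 of 3 libraries, 282 with absence required in full lists, 166 with a length per protein and 1483 to 1647 without a replicate. The mean gap of β-catenin of other conditions turned to 7.09 points with all peaks and was -7.10 with 2 of 3 libraries, -10.8 to -10.2 without a replicate and -17.3 without SOX2-OFF replicate 2, past 0.05 in none of these. The naive ESC difference was 27.2 to 37.8 points without a replicate, where p cannot go below 0.0667, and 41.0 points without SOX2-OFF replicate 2 (adjusted p = 0.0357, exact permutation test). The cause of these changes was not tested. With the replicate block, the differences of 44.0, 17.1, -18.6 and 23.7 points had p = 0.25, the smallest that exact permutation by number can give, and the 37.6 points had an adjusted p of 0.0741. The numbers share no stated culture, and deviations of same-numbered SOX2 and β-catenin libraries correlated at 0.022 to 0.0317 across sites, so they were not treated as pairs, although each library correlated best with its own number. Of 160 alternative values over 15 results, 13 of a test were no longer past the threshold, 1 turned its sign and 19 counts of sites moved as given above. The TCF and OCT-SOX sequence differences shrank to -2.38 and 0.184 points with all deposited peaks (exact permutation test, p = 0.8 and 0.3). Tests of 3 against 3 libraries cannot reach 0.05, so passing or missing that threshold says nothing of stability, and unknown read depth limits every statement of absence.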

Other observations

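With all lists shortened to 3423 peaks, the Jaccard index between the SOX2 and the β-catenin library of the same replicate number was 0.253, 0.215 and 0.214 in SOX2-ON, 0.198, 0.247 and 0.262 in naive ESC, 0.213, 0.166 and 0.190 in CEpiLC and 0.163, 0.112 and 0.276 in SOX2-OFF. The ranges of the conditions overlapped. In coding exons of Tcf7l1, β-catenin replicate 1 had 8 kept summits and SOX2 replicate 1 had 1, and in those of Tfap2c they had 6 and 5, while replicates 2 and 3 of both proteins had 0 in either gene.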
